A study of Mus musculus with 5 samples.

Results

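The cells described here are 1239 fibroblasts of the mouse mammary gland that carried at least 3 UMIs (unique molecular identifiers, each counting 1 captured transcript) of Mme, Fgf10 and Scg3 summed. They were selected on measured values. A barcode had to hold at least 500 genes and 5000 UMIs, with at most 15% mitochondrial UMIs. It also needed at least 100 UMIs per 10000 from Col1a1, Col1a2, Col3a1, Dcn and Lum, and none from Ptprc, Epcam, Pecam1 or Rgs5, which mark leukocytes, epithelium, endothelium and pericytes. Of 28588 barcodes kept on genes and mitochondrial UMIs, out of 32472 deposited, 6722 passed the depth, collagen and lineage gates and are called gated fibroblasts. Members then had to hold fewer than 2 UMIs of Gdf10, fewer than 3 of Pi16 and Dpp4, and fewer than 3 of Sbsn, Krtdap and Akr1c18. They made up 18.4% of the gated fibroblasts and 4.33% of the kept barcodes. The working name of these cells was Mme Fgf10 periductal or preadipocyte-like fibroblasts; they are called Mme/Fgf10/Scg3 fibroblasts below, for the genes of the gate.

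The study compared mammary tissue of mice labelled Frmd3 knockout (KO, 3 libraries) with tissue of wild-type mice (WT, 2 libraries), 1 droplet library with 3′ tags per mouse. FRMD3 belongs to the FERM proteins, which link membrane proteins to the cytoskeleton, and the series title links it to epithelial fate and Notch signaling. The labels give no age, strain or reproductive stage, and do not give the deleted stretch of Frmd3 and the cells that lack it. Lists of 5 values run over the KO libraries (KO1 to KO3) and then the WT libraries (WT1, WT2).

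Fibroblasts of the mammary stroma lay down collagen and basement membrane around ducts and fat, and send growth factors to the epithelium. Fgf10 is a ligand for the epithelial receptor Fgfr2 and is needed for the mammary bud. Mme encodes neprilysin, a cell-surface enzyme that cuts peptides, Scg3 a protein of secretory granules, Enpp2 the secreted enzyme autotaxin that makes lysophosphatidic acid, and Lpl the lipase that frees fatty acids from lipoproteins. Preadipocytes are stromal cells committed to the fat lineage that do not yet hold lipid droplets.

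In mm10 with the GENCODE M21 annotation, Mme lies on chromosome 3 at 63241537 to 63386030 on the plus strand, Fgf10 on chromosome 13 at 118669791 to 118792115 on the plus strand, and Scg3 on chromosome 9 at 75643189 to 75684056 on the minus strand. Enpp2 lies on chromosome 15 at 54838901 to 54952892 on the minus strand and Lpl on chromosome 8 at 68880491 to 68907448 on the plus strand. The UMIs of each are 3′ tags summed over the gene.

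The libraries held 510, 14, 294, 366 and 55 members of 2217, 917, 714, 1212 and 1662 gated fibroblasts. Members' median depths were 9556.5, 13042, 10594.5, 9661.5 and 14766 UMIs, and their summed depths 5424607, 181934, 3418392, 3982262 and 851152 UMIs. KO2, with 14 members, is therefore the shallowest library for every value in members, and was left out of the fits, which needed at least 20 cells of a class in a library. A gene with no UMI could have had up to 3 UMIs, or 0.553, 16.5, 0.878, 0.753 and 3.52 counts per 1000000 UMIs (CPM); this floor and the intervals below cover counting error only. Between 3 and 22 barcodes were shared by any pair of libraries. In KO3, heat-shock genes summed to 15112 CPM in members and 14924 CPM in other fibroblasts; members of the other 4 libraries had 8062 to 8866 CPM.

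Mme carried most of the selection. It had a UMI in 85.1% of the members, Scg3 in 50.5% and Fgf10 in 37.0%. Mme was the only gene of the 3 found in 446 members (36.0%), and all 3 were found together in 198 (16.0%). Among the libraries with over 20 members, Fgf10 was found in 37.3%, 41.2%, 34.7% and 25.5% of the members of KO1, KO3, WT1 and WT2, and Scg3 in 53.3%, 50.7%, 46.2% and 50.9%. Most of these cells are thus defined by Mme or Scg3 and not by Fgf10.

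Mme is not private to fibroblasts. In epithelial cells, taken as barcodes with at least 2 Epcam UMIs, it was found in 41.7%, 14.3%, 28.0%, 33.9% and 20.9% of cells, at 92.6, 25.4, 25.2, 65.1 and 37.0 CPM; median depths of these cells were 11409, 15524, 22789, 13862 and 19601 UMIs. In members it stood at 570, 489, 486, 572 and 399 CPM, a level that the gate sets. Fgf10 was found in at most 0.720% and Scg3 in at most 1.44% of epithelial cells, and immune cells (at least 2 Ptprc UMIs) held Mme in at most 2.22%. Lpl was found in 28.7%, 16.7%, 34.1%, 40.3% and 19.3% of immune cells. The Epcam and Ptprc gates left neither gene in the members, but luminal keratins were present: Krt8 had 128, 26, 38, 256 and 53 UMIs.

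Enpp2 and Lpl were given as markers of these cells but were not used by the gate. Enpp2 was found in 85.1% of members and Lpl in 99.0%. Enpp2 stood at 526, 440, 558, 611 and 496 CPM in members and at 88.8, 17.4, 121, 114 and 23.2 CPM in all other gated fibroblasts, so every library's members lay above every library's other fibroblasts. For Lpl the members had 2474, 1226, 1932, 1623 and 1294 CPM and the others 1484, 481, 1354, 890 and 786. The Lpl ranges overlapped between libraries, while within each library the members were higher.

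Cells without any of the markers already held more Enpp2 than other fibroblasts did. Of the gated fibroblasts that passed the 3 exclusions, 256 had no UMI of Mme, Fgf10 or Scg3, and their Enpp2 was already at 440, 231, 426, 335 and 277 CPM. Just outside the threshold, the 185 cells with 2 marker UMIs had 438 CPM of Enpp2 and 1806 CPM of Lpl over all libraries. Just inside it, the 170 members with 3 marker UMIs had 521 and 2079 CPM. The 247 members with 4 to 5 had 478 and 2244 CPM, and the 822 with 6 or more had 582 and 1931 CPM. Summed over all libraries, Enpp2 thus stood higher inside the threshold than just outside it, by less than it stood above other fibroblasts in cells with no marker UMI. Single libraries did not all keep that order. With 4 to 5 marker UMIs Enpp2 lay below its level with 2 in KO1 (483 against 505 CPM), KO3 (359 against 410) and WT2 (343 against 356). It lay above that level in KO2 and WT1. With 6 or more it was higher than with 2 in every library. Lpl showed no steady order over the bins.

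**Figure D1:**
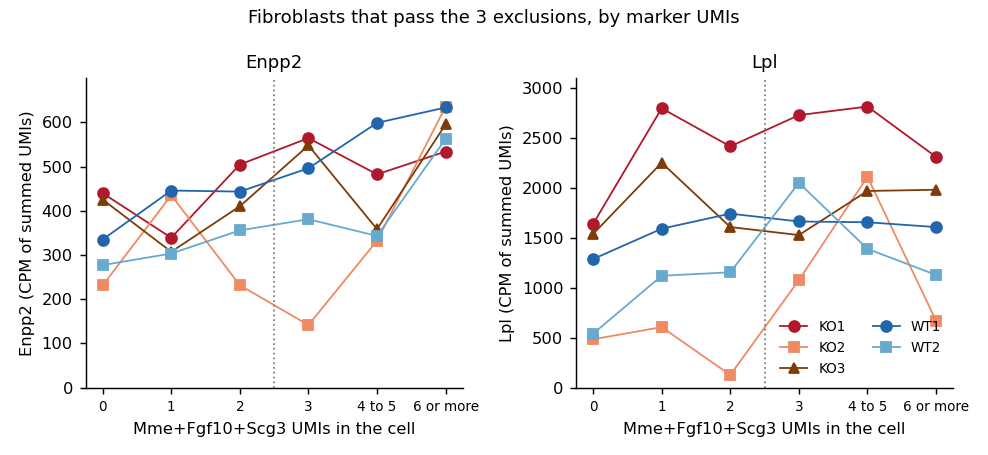
Enpp2 (left) and Lpl (right) in gated fibroblasts that passed the 3 exclusions, as CPM of the summed UMIs (y axis), by the number of Mme, Fgf10 and Scg3 UMIs in the cell (x axis), 1 line per library; members lie right of the dotted line. Cells with no marker UMI had Enpp2 at 231 to 440 CPM, and the Lpl lines keep no steady order across the bins; KO2 points rest on 3 to 37 cells each.

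Members of the preadipocyte list were mostly higher in these cells than in other gated fibroblasts. The list of 17 genes was chosen, like all lists here, with earlier results of these data known. Of its 16 genes tested, 9 passed the edgeR threshold (adjusted p under 0.05) higher and 1 lower, with a median log2 difference of 0.56, against a median of -0.01 over all 12078 genes tested. Over those genes, 1742 (14.4%) were called higher and 1922 (15.9%) lower in members. The contrast of members with other fibroblasts is the one the gates made, so these calls are given as a description and nothing is read from their number. The unmarked cells described below passed the same exclusions with fewer than 3 marker UMIs. Against them, 3 of the 16 list genes were called higher, 1 lower and 12 not, with a median of 0.02. Over all 10221 genes of that comparison, 1.28% were called higher and 3.39% lower.

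Fabp4, a fatty acid carrier of the fat lineage, had 417, 33.0, 526, 244 and 121 CPM in members and 146, 29.0, 306, 61.3 and 31.0 in other fibroblasts (log2 difference 1.45 ± 0.22 SE, 4 libraries). Plin2, which coats lipid droplets, had 401, 209, 188, 624 and 368 against 112, 57.2, 89.0, 174 and 58.1 CPM (1.77 ± 0.24). Pparg, the transcription factor that drives fat cell formation, was low at 14.6, 0, 8.48, 15.6 and 8.22 CPM against 5.53, 3.33, 5.50, 4.85 and 2.66 (1.28 ± 0.22). All 3 were higher in members in each of the 4 libraries fitted; in KO2, Fabp4 and Plin2 were higher and Pparg had no UMI. The transcription factor Cebpa (1.06 ± 0.15) and the fatty acid receptor Cd36 (1.29 ± 0.17) were also higher.

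Not all of the list moved that way. Ebf2, a factor of the brown and beige fat lineage, was lower in members, at 64.5, 126, 79.6, 56.8 and 39.9 CPM against 195, 167, 225, 165 and 172 (-1.72 ± 0.11). Some genes of mature fat cells were at or near 0: members held 1 UMI of Adipoq, the adipokine adiponectin, in all, 3 of the droplet protein Plin1 and 1 of Cidec. Other genes of the mature fat cell list were present. Its 10 genes summed to 106, 214, 137, 109 and 63.4 CPM in members and 108, 93.5, 89.5, 101 and 122 in other fibroblasts. Of the 3 tested, 1 was called higher in members and 0 lower. Position in the gland is not measured here, so whether the cells lie around ducts was not tested. The preadipocyte-like part of the name thus held for some genes of its list and not for others.

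**Figure D2:**
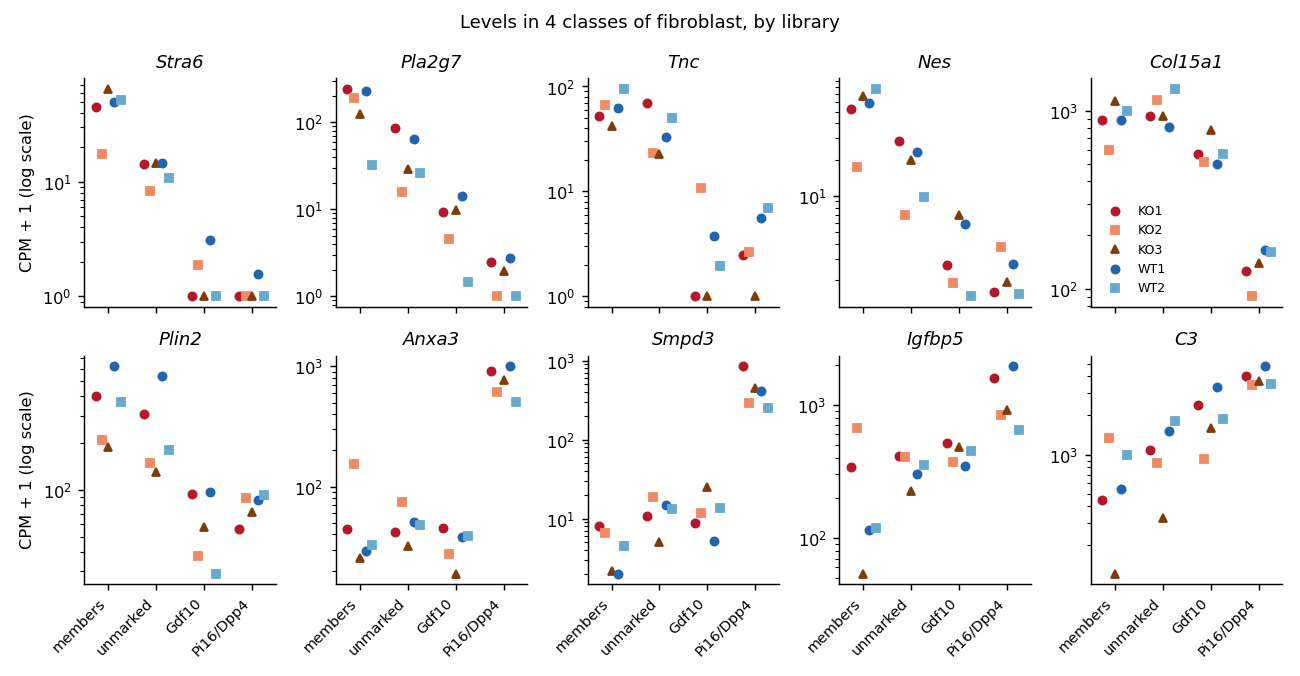
Levels (CPM + 1, log scale) of 10 genes in members and in 3 other classes of gated fibroblast, 1 point per library and class. Stra6, Pla2g7 and Nes fall in steps from members over unmarked cells to the Gdf10 and Pi16/Dpp4 classes, while Col15a1 is as high in unmarked cells as in members and Anxa3 and Smpd3 are high in the Pi16/Dpp4 class.

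Beyond the named markers, the genes with the largest excess in members over other fibroblasts were Stra6, Pla2g7, Tnc, Nes, Hc, Crabp1, F2r, Enpp2, Col13a1, Map2, Nos1 and Serpina3g. Stra6, the cell-surface receptor for vitamin A bound to its carrier, had 43.9, 16.5, 63.8, 48.7 and 50.5 CPM in members and 3.06, 0.384, 4.86, 4.13 and 0.608 in other fibroblasts (log2 difference 4.06 ± 0.42 SE). Pla2g7, a secreted enzyme that breaks down platelet-activating factor, had 242, 192, 124, 228 and 31.7 CPM against 14.5, 1.02, 8.67, 17.1 and 2.43 (3.79 ± 0.11). Crabp1, which binds retinoic acid inside cells, had 71.9, 98.9, 135, 138 and 119 CPM against 12.6, 1.02, 30.7, 20.9 and 2.58 (2.92 ± 0.63). In all 3 genes the members of every library lay above the other fibroblasts of every library, although Crabp1, like Enpp2, lost its call when any of KO1, KO3 or WT1 was left out.

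Tnc, the matrix protein tenascin-C, had 51.1, 66.0, 41.2, 62.0 and 94.0 CPM in members and 8.94, 2.05, 6.13, 7.90 and 3.27 in others (3.12 ± 0.41). Nes, the intermediate filament protein nestin, had 51.2, 16.5, 66.1, 58.3 and 76.4 against 9.70, 1.47, 9.09, 7.99 and 1.82 (3.09 ± 0.53). Hc, complement component C5, had 272, 60.5, 224, 187 and 182 CPM against 41.2, 0.897, 51.6, 28.7 and 5.85 (2.93 ± 0.54). These 3 also did not overlap between members and others in any library, but Hc lost its call when KO1, KO3 or WT1 was left out, Nes when KO3 or WT1 was, and both with no filter on low counts. Tnc lost its call at 5 marker UMIs and against unmarked cells. Serpina3g, a serine protease inhibitor, was at 24.1, 16.5, 58.5, 42.7 and 77.5 CPM (2.68 ± 0.57), and it lost its call when KO1, KO3 or WT1 was left out.

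Genes of neurons were among those higher in members. Map2, a microtubule protein of dendrites, had 112, 11.0, 185, 154 and 70.5 CPM against 17.4, 1.15, 46.9, 25.7 and 1.94 (2.73 ± 0.52). Map2 lost its call when KO1, KO3 or WT1 was left out, as did Col13a1, and F2r did without KO1 or KO3. Nos1, the neuronal nitric oxide synthase, had 72.1, 0, 57.3, 67.5 and 12.9 CPM against 7.87, 0.320, 13.5, 11.1 and 0.684 (2.71 ± 0.25). Of 20 tested genes of axon guidance and neuronal secretion, 8 were called higher and 7 lower, with a median of 0.12. The guidance ligand Slit2 had 194, 181, 340, 291 and 289 CPM in members (2.53 ± 0.50) and its receptor Robo2 29.5, 5.50, 49.4, 36.7 and 42.3 CPM (2.89 ± 0.47). Sema5a was higher (2.21 ± 0.15), while Sema3c was lower: it had 26.4, 148, 12, 13.6 and 54.0 CPM in members and 561, 774, 441, 403 and 880 in others (-4.70 ± 0.18).

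The genes with the largest deficit in members were Smpd3, Sema3d, Car8, Limch1, Mgll, Aldh1a3, Sema3c, Anxa3, Efhd1, Aif1l, Ackr3 and Pcsk6. Smpd3, a sphingomyelinase, had 38, 1, 4, 4 and 3 UMIs in members, or 7.01, 5.50, 1.17, 1.0 and 3.52 CPM, against 509, 297, 226, 210 and 336 CPM in others (-6.76 ± 0.22). Anxa3, a membrane-binding annexin, had 43.1, 154, 24.3, 28.4 and 31.7 CPM against 805, 809, 502, 750 and 753 (-4.54 ± 0.12). Aldh1a3, an enzyme that makes retinoic acid, had 2.21, 5.50, 0.293, 3.52 and 4.70 CPM against 64.4, 115, 56.7, 54.8 and 151 (-4.92 ± 0.28). The Gdf10 class was low in some of these genes too: Smpd3 stood there at 7.80, 10.7, 23.9, 4.19 and 12.6 CPM, Anxa3 at 44.0, 26.6, 17.9, 37.0 and 37.7 and Aldh1a3 at 2.23, 2.66, 2.99, 2.79 and 13.5. Sema3d, a guidance ligand, was not low there, at 38.4, 100, 32.8, 33.5 and 59.6 CPM against 0.369, 22, 1.17, 0.251 and 0 in members. In the Pi16/Dpp4 class, Smpd3 stood at 851, 293, 445, 413 and 248 CPM and Anxa3 at 917, 609, 766, 1004 and 505. Of 8 tested genes that mark adventitial fibroblasts, which surround vessels, 7 were called lower in members and none higher, with a median of -2.89; the exclusion of Pi16 and Dpp4 bears on this list.

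Basement membrane genes were called in both directions. Of 17 tested basement membrane genes, 9 were called higher and 4 lower, with a median of 0.47. Against the unmarked cells described below, 1 of 16 was called higher and 3 lower, with a median of -0.01. Col15a1, a collagen that anchors basement membranes, had 883, 599, 1130, 885 and 993 CPM against 295, 134, 459, 341 and 153 (1.64 ± 0.25), and Col4a1, a chain of the main basement membrane collagen, 1607, 1314, 2216, 1597 and 1289 against 675, 408, 1290, 784 and 399 (1.1 ± 0.13). Every member value of Col15a1 lay above every value of the other fibroblasts. Of 31 tested genes of elastic fibres and matricellular proteins, 7 were called higher and 13 lower, with a median of -0.27. Postn, the matrix protein periostin, was higher (1.59 ± 0.10), at 5099, 3133, 8131, 5103 and 8754 CPM in members against 1831, 2619, 3067, 1343 and 2348. Fbn1, the fibrillin of elastic microfibrils (-1.76 ± 0.17), and Eln, elastin (-1.68 ± 0.38), were lower.

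Among signaling genes, receptors for platelet-derived growth factor were higher in members: Pdgfra stood at 639, 291, 467, 571 and 448 CPM (0.74 ± 0.11) and Pdgfrb at 232, 132, 268, 245 and 204 CPM (1.11 ± 0.10). Besides Fgf10, other fibroblast growth factors were lower, with Fgf2 at -2.21 ± 0.11, Fgf7 at -1.34 ± 0.13 and Fgf18 at -2.81 ± 0.18, while Hgf, a growth factor for epithelium, was higher at 98.4, 55.0, 88.9, 77.3 and 85.8 CPM (1.38 ± 0.29). Of 12 tested hormone receptors, 8 were called lower and none higher, with a median of -0.67. Against the unmarked cells described below, 1 of 10 was called lower and 0 higher, with a median of -0.20. Esr1, the estrogen receptor, had 21.8, 55.0, 25.7, 19.3 and 29.4 CPM in members against 68.5, 112, 89.2, 53.8 and 121 (-1.79 ± 0.11). Of 21 tested BMP and TGF-beta genes, 5 were called higher and 12 lower, with a median of -0.91. Against unmarked cells, 0 of 20 were called higher and 4 lower, with a median of -0.04. Of 20 tested Wnt ligands and regulators, 6 were called higher and 4 lower, with a median of -0.12. Wnt10b, a Wnt ligand, had 1 UMI in all members against 7.61 to 32.2 CPM in others. The Wnt inhibitor Sfrp1 was higher, at 227, 291, 274, 360 and 255 CPM (1.49 ± 0.11).

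Inflammatory genes that were called were mostly lower in members. Of 18 tested genes of the NF-kB response, 9 were called lower and none higher, with a median of -0.39. Of 13 complement genes, 6 were called lower and none higher, with a median of -1.1; the list does not hold Hc, which was higher. C3, the central complement protein, had 448, 1347, 121, 541 and 989 CPM in members against 2899, 2073, 1862, 3564 and 2947 (-2.81 ± 0.45). The chemokine gene Ccl2 (-0.96 ± 0.09) and Il33, a cytokine released by stroma (-3.54 ± 0.46), were lower too.

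Members were also set against single classes of fibroblast. The Pi16/Dpp4 class held 736 cells; against it 1548 of 10725 genes were called higher (14.4%) and 1610 lower (15%). Against the Gdf10 class, with 542 cells, 1295 of 10202 were called higher (12.7%) and 1407 lower (13.8%). Against cells that held at least 3 UMIs of Sbsn, Krtdap and Akr1c18 and fewer than 3 marker UMIs, with no other exclusion, a class set after the data were seen, 2201 of 11442 were called higher (19.2%) and 2206 lower (19.3%). Stra6 had 0, 0, 0, 0.579 and 0 CPM in the Pi16/Dpp4 class and 0, 0.888, 0, 2.09 and 0 in the Gdf10 class. Nrgn, a calmodulin-binding protein known from neurons, had 17.1, 66.0, 78.4, 22.6 and 237 CPM in members and 0, 1.78, 0, 4.19 and 1.40 in the Gdf10 class. Genes lower in members than in the Gdf10 class were led by Chrdl1, Cdh13, Gas6, Il33 and Abcc9; Gas6, the ligand of the receptor Axl, had 61.6, 945, 9.07, 65.8 and 39.9 CPM in members and 1270, 379, 573, 1357 and 381 there (-4.62 ± 0.45).

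Fewest calls came against the unmarked cells, 645 gated fibroblasts that passed the 3 exclusions with fewer than 3 marker UMIs. This comparison was added after the data were seen. Of 10221 genes, 131 (1.28%) were called higher in members and 346 (3.39%) lower. Much of the profile above was shared: log2 differences were 0.12 ± 0.08 for Lpl, 0.45 ± 0.08 for Enpp2, -0.12 ± 0.12 for Col15a1 and 0.31 for Tnc, where only that of Enpp2 passed. List medians were -0.02 for elastic fibre and matricellular genes and -0.46 for adventitial genes. They were -0.45 for NF-kB genes and -0.56 for complement genes, where 4 of 18 and 6 of 12 were called lower and none higher. Median depth was lower in unmarked cells, at 8367, 10810, 8222, 8556 and 10725 UMIs, and a cell with fewer UMIs reaches 3 marker UMIs less often; the part of depth in this comparison was not tested.

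What still set members apart from unmarked cells was led by Tagln, Stra6, Pla2g7, Lrrc15 and Nes. Tagln, an actin-binding protein of contractile cells, had 40.0, 16.5, 64.1, 59.8 and 110 CPM in members and 10.3, 10.3, 24.2, 6.54 and 12.1 in unmarked cells (2.27 ± 0.25). Lrrc15, a surface protein of activated fibroblasts, had 47.0, 11.0, 136, 36.7 and 197 against 10.8, 11.8, 64.6, 7.13 and 75.8 CPM (1.47 ± 0.19). Both were higher in members in KO1, KO3, WT1 and WT2, and Lrrc15 was not in KO2. Postn was higher by 1.02 ± 0.08.

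Lower in members than in unmarked cells were Sfrp5, Thbs4, Myoc, Cpxm2 and Il33. Sfrp5, a Wnt inhibitor, had 2, 155, 0, 1 and 0 UMIs in members, against 23.7, 560, 55.2, 34.5 and 149 CPM in unmarked cells (-7.39 ± 0.36, without KO2). Myoc, myocilin, a secreted glycoprotein, had 20.3, 126, 3.22, 4.02 and 21.1 CPM in members and 232, 362, 13.5, 72.5 and 381 in unmarked cells (-3.77 ± 0.19). KO2 stood apart here, since its 14 members held Sfrp5 at 852 CPM, Gas6 at 945 CPM and Il33 at 231 CPM. Endothelial genes summed to 148 CPM (27 UMIs) in KO2 members, against 18.1 to 24.7 CPM in members of the other libraries. Other gated fibroblasts held 118, 142, 106, 96.7 and 154 CPM of them, so KO2 members were near the level of other fibroblasts.

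The members were not uniform. They were split by whether a cell held a UMI of Fgf10 or Scg3, a split chosen after the data were seen and given with no test: 793 members (64.0%) held one, and the rest were selected on Mme alone. In KO1, KO3, WT1 and WT2, 3180 genes outside the gates reached 50 CPM on average in either kind. Of these, 47 (1.48%) were at least 2-fold higher in every library in the cells with an Fgf10 or Scg3 UMI, and 25 (0.786%) at least 2-fold lower.

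Cells with an Fgf10 or Scg3 UMI were higher in Fndc1, Ly6a, Pcolce2, Ly6c1, C3, Ogn, Fabp4, Igfbp5, Dpt, Fap and Sfrp2 among others. Ly6a, the surface antigen Sca-1 of stromal progenitors, stood at 572, 204, 715 and 907 CPM in them and at 71.0, 2.67, 80.4 and 53.0 in members with Mme alone, in the order KO1, KO3, WT1 and WT2. Fabp4 stood at 558, 694, 338 and 172 against 31.7, 181, 41.8 and 44.1 CPM. Dpt, dermatopontin, a matrix protein of many fibroblasts, stood at 1556, 1252, 1236 and 1688 against 390, 319, 475 and 335 CPM. Ly6a, Fabp4 and Dpt were picked from the genes at least 2-fold higher in every library, so their shared direction follows from that choice.

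Several genes that headed the comparison with other fibroblasts were instead high in members with Mme alone. Pla2g7 stood at 98.4, 56.6, 82.5 and 7.82 CPM with an Fgf10 or Scg3 UMI and at 637, 263, 540 and 67.7 without. Stra6 stood at 18.6, 29.2, 24.7 and 23.5 CPM with, and at 113, 135, 100 and 91.2 without. Nrgn stood at 3.02, 14.8, 10.7 and 23.5 CPM with, and at 55.8, 208, 48.1 and 559 without. Nos1, Tnc, Igfbp2, Mfap4, F2r and Col13a1 shared that direction. The preadipocyte gene Fabp4 and the leading gene Stra6 therefore lay in different members on average.

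Enpp2 was lower with Fgf10 or with Scg3, while Lpl differed with Fgf10 in 1 direction in all libraries and with Scg3 did not. A member without 1 of the gate genes had to reach 3 UMIs through the others, so the gate bears on these splits. With Mme, Enpp2 went the other way, at 612, 500, 626, 692 and 515 CPM with a Mme UMI and 185, 157, 122, 177 and 0 without. Only 3 members of KO2 and 2 of WT2 lacked Mme. Members with an Fgf10 UMI had Enpp2 at 332, 353, 337, 358 and 266 CPM and members without one at 682, 506, 754, 786 and 566. For Lpl the members with an Fgf10 UMI had 3197, 2321, 2665, 2076 and 1696 CPM and those without 1897, 380, 1285, 1310 and 1170. In all 5 libraries Enpp2 was lower and Lpl higher with Fgf10. Members with a Scg3 UMI had Enpp2 at 368, 237, 344, 405 and 400 CPM and those without at 768, 695, 827, 832 and 589. Lpl stood at 2612, 1766, 2360, 1571 and 1244 CPM with Scg3 and at 2266, 546, 1395, 1679 and 1342 without, with no common direction over the libraries. The KO2 values rest on 8 cells with and 6 without Scg3, and the gaps in WT1 and WT2 were small. A difference by genotype was not tested. Median depth differed too, with 11235.5, 11461.5, 11379, 10853.5 and 13831 UMIs in cells with an Fgf10 or Scg3 UMI and 7835, 13980.5, 8879, 8875 and 15240 in cells with Mme alone. The part of depth in the split was not tested.

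After every cell was thinned to 5000 UMIs, 675 members (54.5%) held Enpp2 but no Ly6a, 191 (15.4%) Ly6a but no Enpp2, 265 (21.4%) both and 108 (8.72%) neither. Fgf10 and Scg3 UMIs were counted before thinning, so the shares of cells that held them are not at equal depth. Of the members with Enpp2 and no Ly6a, 49.3%, 50%, 47.0%, 36.5% and 38.9% had an Fgf10 or Scg3 UMI. Of those with Ly6a and no Enpp2, 94.2%, 75%, 100%, 94.5% and 100% had one. The KO2 shares rest on 4 cells of each kind, and those of WT2 on 18 of the first kind and 12 of the second. The first kind was the more common in KO1, KO3 and WT1 and made up 32.7% of the members of WT2, against 21.8% for the other kind. In KO2 each kind made up 28.6%.

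**Figure D3:**
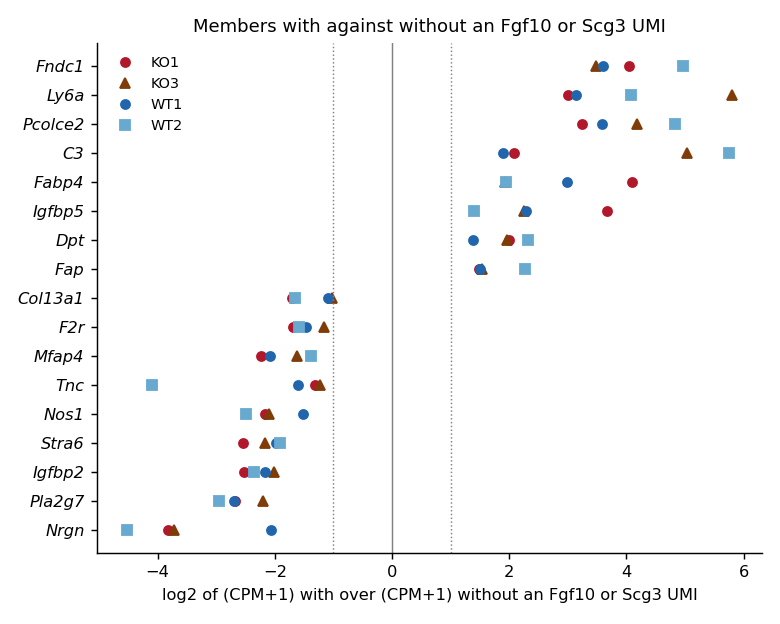
Log2 ratio of CPM + 1 in members with an Fgf10 or Scg3 UMI over members without (x axis) for 17 genes chosen from those at least 2-fold apart in every library, 1 symbol per library (KO1, KO3, WT1, WT2; dotted lines mark 2-fold). By this choice, Fndc1, Ly6a and C3 lie right of the line in all 4 libraries and Nrgn, Pla2g7 and Stra6 left of it.

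The share of these cells varied more between mice of 1 genotype than between genotypes. Members made up 23% (95% exact binomial interval 21.3 to 24.8), 1.53% (0.837 to 2.55), 41.2% (37.5 to 44.9), 30.2% (27.6 to 32.9) and 3.31% (2.5 to 4.29) of the gated fibroblasts. The means were 21.9% ± 19.8 (SD, n = 3) in KO and 16.8% ± 19.0 (SD, n = 2) in WT. The difference of 5.15 percentage points was well within the spread between libraries (2-sided exact permutation test over 10 splits, p = 0.8; adjusted over 2 shares, 0.9; 0.1 is the smallest p this design allows), and it changed sign without KO3 (-4.49) or without WT2 (-8.30). Of all kept barcodes, members made up 4.92%, 0.301%, 12.9%, 7.23% and 0.882%, or 6.04% ± 6.37 in KO and 4.06% ± 4.49 in WT (exact permutation p = 0.9).

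KO2 and WT2, which share a replicate number, were both low. With every cell thinned to 5000 UMIs the shares were 20.9%, 1.31%, 33.1%, 25.7% and 2.83%, so the same libraries were low at equal depth. Before the 3 exclusions, cells with at least 3 marker UMIs were 40.2%, 6.65%, 52.5%, 43.0% and 10.2% of gated fibroblasts. The exclusions then removed 42.8%, 77.0%, 21.6%, 29.8% and 67.6% of them. Cells with at least 3 UMIs of Sbsn, Krtdap and Akr1c18 moved in the opposite sense, at 30.7%, 63.5%, 16.1%, 20.5% and 65.6% of gated fibroblasts. The part of these other fibroblasts, of dissection or of hormonal stage in the low shares was not tested.

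**Figure D4:**
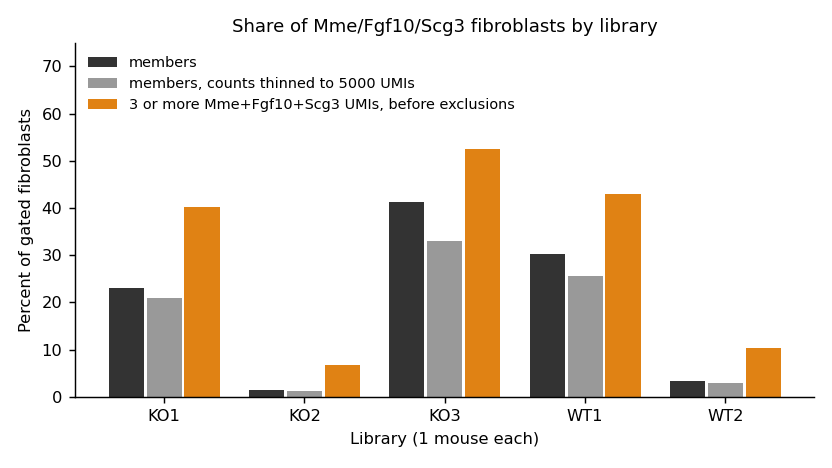
Percent of gated fibroblasts (y axis) that were members, members after thinning to 5000 UMIs, and cells with at least 3 marker UMIs before the exclusions, as bars for each library (1 mouse each). Both KO2 and WT2 lie at or under 10.2% in all 3 counts, and KO1, KO3 and WT1 at or above 20.9%.

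The level of Frmd3 did not pass a test between the labels in these cells. Its locus is mm10 chromosome 4, 74013442 to 74202214, plus strand. Members held 14, 2, 13, 11 and 2 UMIs of it, or 2.58, 11.0, 3.80, 2.76 and 2.35 CPM, with a KO minus WT log2 difference of 0.22 ± 0.66 (SE; edgeR adjusted p = 1, 2 KO and 2 WT libraries). Where the 3′ end lies beyond the deletion its tags remain, so these counts do not check the labels. In the Gdf10 class Frmd3 was higher, at 14.5, 16.0, 8.96, 11.9 and 4.66 CPM. Of the 12 FERM genes tested, none passed between genotypes, with a median of -0.02.

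No gene passed between KO and WT members in the edgeR fit. The fit used KO1, KO3, WT1 and WT2, since KO2 held too few members. edgeR's quasi-likelihood test passed 0 of 10815 genes (0%), its smallest adjusted p was 0.365, and 283 genes had an unadjusted p under 0.05. DESeq2 passed 23 genes and gave 291 such unadjusted values. KO and WT ranges lay apart in 1930 genes with KO higher (17.8%) and in 1421 with KO lower (13.1%). Bulk sums cannot tell fewer cells of a kind from less RNA per cell, and this holds for the mixture of the 2 kinds of member above.

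The genes of smallest p among those lower in KO were Iigp1, Gbp6, Ifi47, Gbp2 and Cxcl10, all induced by interferon. Iigp1, an interferon-inducible GTPase, stood at 308, 802, 280, 1267 and 889 CPM (log2 difference -1.91 ± 0.27 SE; edgeR adjusted p = 0.365). Gbp2, a guanylate-binding protein, stood at 82.6, 220, 61.1, 207 and 242 CPM (-1.68 ± 0.27). Cxcl10, a chemokine that draws T cells, stood at 105, 879, 57.3, 346 and 681 CPM (-2.70 ± 0.44). In each, KO1 and KO3 were low and both WT libraries high, but the 14 members of KO2, left out of the fit, lay within or above the WT range for Gbp2 and Cxcl10 and close to WT2 for Iigp1. With KO2 included at a minimum of 10 cells, the log2 difference was -1.32 for Iigp1 and -0.78 for Cxcl10, and neither passed. With the replicate block added to that fit, Iigp1 passed (-1.22, edgeR adjusted p = 0.0021) and Cxcl10 did not (adjusted p = 0.454). Without KO2, DESeq2 called Iigp1 (adjusted p = 1.83e-13), Gbp2 and Cxcl10. edgeR called Iigp1 without KO1 (adjusted p = 0.0116), Gbp2 without KO1 (0.0206) and Cxcl10 without WT1 (0.0379), all 3 with no filter on low counts, and Iigp1 and Cxcl10 after thinning. Over all alternatives, adjusted p ran from 1.83e-13 to 1 for Iigp1.

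Over the interferon list, 24 of 25 genes had a negative difference, with a median of -1.36 against 0.01 over all genes, and 20 had KO ranges below WT ranges. The KO ranges here hold KO1 and KO3 only, without KO2. Among all genes tested, 13.1% had KO ranges below WT ranges and 50.8% had a positive difference. Over the MHC class I list, which shares Tap1, Psmb8, Psmb9 and Nlrc5 with the first, 15 of 15 were negative, with a median of -1.51, and 13 had separate ranges. B2m, the light chain of MHC class I, stood at 1357, 1940, 639, 3330 and 1986 CPM (-1.44 ± 0.40) and H2-K1, a heavy chain, at 526, 676, 306, 2123 and 711 (-1.79 ± 0.53). None of these genes passed. Left-out libraries moved the medians to between -1.50 and -1.15 for interferon genes and between -2.26 and -0.89 for MHC class I, the latter nearest 0 without WT1. With KO2 included at a minimum of 10 cells, the medians were -1.13 for interferon genes and -1.27 for MHC class I. With the replicate block added they were -0.92 and -1.05, and after thinning without KO2 -1.05 and -1.56.

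Markers of other cell types did not pass between genotypes. The 8 leukocyte genes besides Ptprc summed to 50.0, 27.5, 17.3, 82.9 and 47.0 CPM in members, and 6 of 6 tested were negative, with a median of -1.04; Ptprc and Cd3e were at 0 in all members. The 10 luminal epithelial genes besides Epcam summed to 75, 484, 48.3, 188 and 153 CPM, and 8 of 8 tested were negative, with a median of -1.25. The sums did not separate the genotypes, since leukocyte genes in KO1 lay above WT2 and luminal genes were highest in KO2. Krt8, a luminal keratin, stood at 23.6, 143, 11.1, 64.3 and 62.3 CPM. Heat-shock genes had a median of 0.67 and immediate-early genes of 0.54; that of the heat-shock genes was -0.06 without KO3. The part of RNA from other cells and of cell stress in these values was not tested.

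Higher in KO by the smallest p were Timp3, Zbtb16, Ndrg2, Fabp4 and Vldlr. Timp3, an inhibitor of metalloproteinases, stood at 279, 176, 270, 97.4 and 72.8 CPM (1.64 ± 0.26; edgeR adjusted p = 0.365), and here KO2 too lay above both WT libraries. Timp3 was called by DESeq2 (adjusted p = 3.65e-08), by edgeR with no filter (8.05e-05), without KO1 (0.028) and with KO2 included under the replicate block (1.35, adjusted p = 0.0045), but not with KO2 included and no block (1.48, adjusted p = 1). Fabp4 stood at 417, 33.0, 526, 244 and 121 CPM (1.32 ± 0.34), where KO2 was the lowest of all. Lpl, at 0.56 ± 0.25, and Enpp2, at -0.07 ± 0.24, did not pass either. Of 17 Notch pathway genes tested, 11 were positive and 6 negative, with a median of 0.06; Hes1, a Notch target, stood at 98.8, 49.5, 206, 77.6 and 52.9 CPM (1.16 ± 0.37, adjusted p by edgeR 1).

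**Figure D5:**
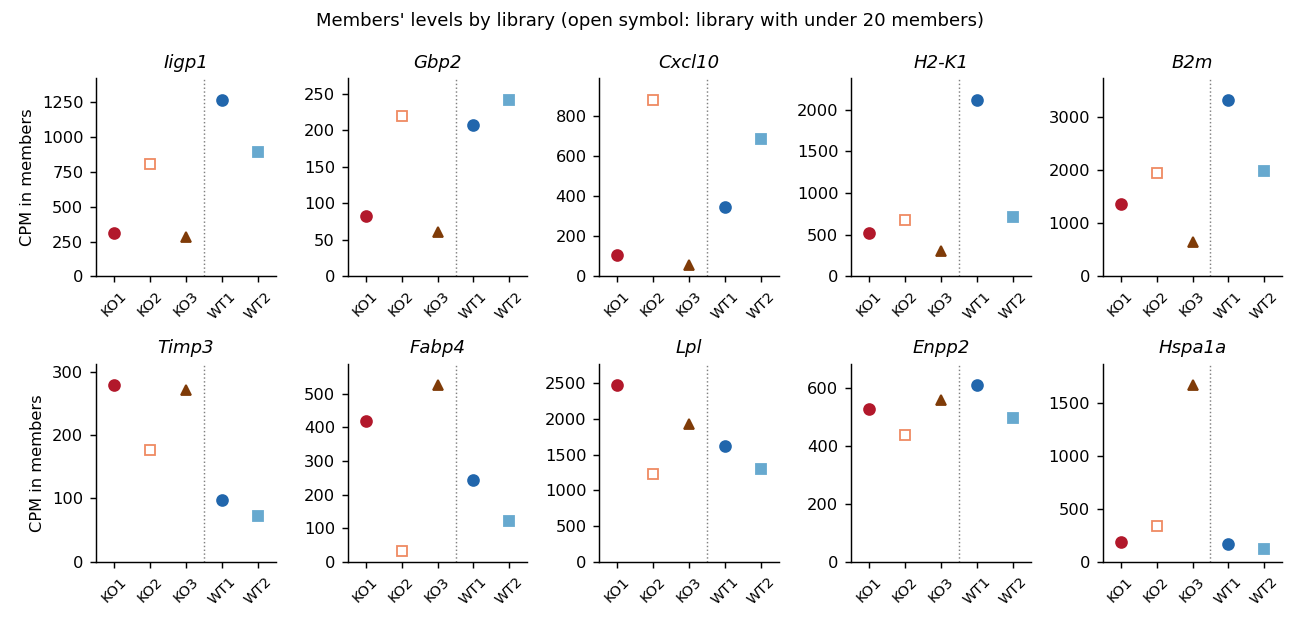
Levels in members (CPM, y axis) of 10 genes in each library, KO left and WT right of the dotted line; the open square is KO2, whose 14 members were left out of the fit. KO1 and KO3 lie below both WT libraries for Iigp1, Gbp2, Cxcl10, H2-K1 and B2m, KO2 lies above both KO1 and KO3 in all 5 but under both WT libraries for Iigp1, H2-K1 and B2m, and Hspa1a is high in KO3 only.

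Whether the genotype difference in members differed from that in other fibroblasts of the same libraries was tested as an interaction. edgeR passed 0 of 12078 genes (0%), and 210 had an unadjusted p under 0.05, while DESeq2 passed 1. The smallest p fell to Timp3 (1.78 ± 0.27 SE; edgeR adjusted p = 0.614), which stood at 971, 858, 597, 819 and 786 CPM in other fibroblasts, with no such split by genotype. The other genes chosen by the same rule were Ndrg2, Sema3b, Rdh10 and Ccn2 with positive and Samhd1, Angptl4, Nptx2, Slc40a1 and Irf7 with negative values. In the interferon list 24 of 25 interaction values were negative, with a median of -0.65, and in the MHC class I list 14 of 15, with a median of -0.47. Over all genes 50.9% of the interaction values were positive, with a median of 0.01. Summed MHC class I genes were at 3187, 3571, 2864, 8338 and 4102 CPM in other fibroblasts and at 3389, 4227, 1642, 9813 and 4488 in members, so WT1 was the highest in both.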

How the data were processed

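Gene by barcode UMI count matrices of 5 mouse mammary libraries were analysed. The deposited counts are raw UMI counts per gene, and per the file headers they were made with Cell Ranger 6.0.2 (6.1.2 for KO3), on mm10 per the submitters' processing notes. Cells were selected by the marker gates in the report; no doublet caller was run, and leaving out the deepest 5% of fibroblasts was an alternative. UMIs were summed per library and class and tested with edgeR 4.0.16 (filterByExpr, TMM, robust quasi-likelihood) in R 4.3.3, with Benjamini-Hochberg adjustment over all genes outside the 18 gate genes and a threshold of 0.05. Libraries with at least 20 cells of each class entered, and class comparisons had the library as a block. DESeq2 1.42.0, another normalization, no filter, thinning, other gates and left-out libraries were alternatives. The fit of KO against WT members and that of members against other fibroblasts were tried on simulated data. The remaining fits were not. CPM values are UMIs per 1000000 of the class's sum. Shares were compared by exact permutation.

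Named genes were those of largest difference among called genes in every library with at least 50 CPM, or of smallest p with at least 20 CPM where none was called, and the most abundant or smallest-p genes of the lists; genes named only by number were counted. Genes named within the members were chosen after their values were seen. Members and lists were chosen with earlier results of these data known. A class of Sbsn, Krtdap and Akr1c18 cells without any other marker held fewer than 20 cells in every library, so a looser class was used.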

Additional observations from a re-analysis of the deposited data

How the results depend on the processing

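Genotype calls in members were few and unstable: edgeR called 0 genes of 10815, 73 with no filter on low counts, 2 after thinning, and between 0 and 58 with 1 library left out (58 without KO1, 9 without WT1, 3 without WT2), while DESeq2 called 23; a lone library is then assumed to vary like the others. With at least 10 cells per library, which lets KO2 in, 0 were called, and 35 with the replicate block. The labels do not say that replicate numbers pair mice. Deviations from the genotype mean correlated at 0.199 for KO1 with WT1 and 0.101 for KO2 with WT2. With 2 WT libraries their deviations mirror each other, so KO1 with WT2 had -0.199 and KO2 with WT1 -0.101. These values are not independent and cannot decide whether the mice were paired. For the interaction, edgeR called 14 with no filter, 0 to 45 with a library left out (45 without WT1), and DESeq2 called 1. Against other fibroblasts, 3664 genes were called, 1770 with no library block, 477 against unmarked cells only, and 2101 to 3729 with a library left out (lowest without KO1, next without WT1). Leaving out a library gave 2035 to 3077 calls against the Pi16/Dpp4 class (2035 without KO1, 2093 without WT1) and 1640 to 2757 against the Gdf10 class (1640 without WT1). The share difference ranged from -8.30 to 18.6 points of gated fibroblasts (-4.49 without KO3, -8.30 without WT2) and from -1.45 to 5.16 points of kept barcodes (-1.45 without KO3, -1.19 without WT2). Causes were not tested. Leaving out KO2 was not run for the fits, which already lacked it.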
